A study of Homo sapiens with 6 samples.

Results

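The genes described here are 46 genes of the amino acid response of T47D, a human breast cancer cell line of the luminal A type. They are ATF4 with 6 regulators that work with it or under it, 4 stress effectors, 5 enzymes of serine, glycine and mitochondrial folate metabolism, 2 enzymes of proline synthesis, 8 amino acid transporters and 20 cytosolic tRNA synthetases. Members were taken by symbol from a list, and all 46 were found among the 26364 genes of the series table. All 46 also passed the minimum mean of 10 normalised reads, with means of 201.8 to 38560.5, so none was left out of the test. Cells received an siRNA against ELF5 (siELF5, Ambion AM16708) or a control siRNA (siNC, Ambion 4390846), and total RNA was sequenced 48 h later in 3 libraries per group. Each group received 1 siRNA, and the products differ in catalogue number as well as in target.

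ATF4 is the transcription factor through which cells answer a shortage of amino acids or a load of unfolded protein. Kinases that sense these states phosphorylate the initiation factor eIF2, which slows protein synthesis in general while ATF4 mRNA is translated more, so much of the control of ATF4 lies in translation, which RNA-seq does not measure. ATF4 protein then binds, with a C/EBP partner, a composite site in genes for amino acid uptake, amino acid synthesis and tRNA charging. Cancer cells, those of the breast included, draw on the same transporters and enzymes for protein, nucleotide and glutathione synthesis.

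The libraries held 83.7, 76.4 and 72.4 M assigned reads in siELF5 and 66.8, 83.3 and 75.6 M in siNC. ELF5 itself, an ETS-family factor of the mammary luminal lineage, averaged 3680 ± 43.7 normalised reads in siELF5 and 13094.5 ± 164 in siNC (SD, n = 3 each), so the target's level matched the labels in all 6 libraries. All 10 luminal markers checked were abundant, with EPCAM the lowest at means of 14711 and 15105 in siELF5 and siNC. Of the 10, 5 rose, 2 fell and 3 did not pass, and the called ones had log2 fold changes of 0.45 for ESR1, 0.31 for FOXA1, 0.23 for XBP1, 0.22 for PGR, 0.15 for GATA3, -0.41 for KRT8 and -0.45 for KRT18. The part of these changes in the other results was not tested. Among markers of other cell types, KRT5, KRT14, COL3A1, PDGFRB, PECAM1 and PTPRC were near 0. TP63, COL1A1, VWF and CD68, the other 4, had means of 202.3, 3473, 12.9 and 167.0 in siELF5 and 162.0, 4649, 29.6 and 132.4 in siNC. In bulk RNA fewer cells of a type and less RNA per cell cannot be told apart. A measure of base composition, computed from the same read values, separated the groups. Whether its source is technical was not tested. The library GC score, which is the median log2 deviation of the genes with the highest GC content minus that of genes of middle GC content, was 0.22, 0.28 and 0.22 in siELF5 replicates 1, 2 and 3, against -0.40, -0.22 and -0.07 in siNC replicates 1, 2 and 3. Base composition and siRNA therefore cannot be fully told apart. The fit was therefore repeated after a GC correction of each library and, separately, with the GC score in the model.

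The 46 genes moved by small amounts and in both directions. By the test 9 of the 46 rose, 12 fell and 25 did not pass (limma adjusted p under 0.05 over 16032 genes). The 21 called genes are 45.7% of the list, and 47.1% of all tested genes were called. The 9 that rose are 19.6%, with 23.8% of all tested genes called and higher. The 12 that fell are 26.1%, with 23.3% called and lower among all. These shares lie near the background, so the number of calls alone does not set the list apart. In the fit that holds the GC score, which widens the standard errors, none of the 46 rose and only SLC7A5 fell. The estimates moved as well as their errors. Of the 21 called genes 3 had the other sign there, 8 kept their sign but were more than 1.5 times smaller, 2 were more than 1.5 times larger and 8 lay within 1.5 times of the reported value.

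The changes were small. None of the 46 differed by 1.5-fold in either direction, whereas 2170 tested genes (13.5%) did. The median absolute log2 fold change was 0.12 for the 46 genes and 0.19 for all tested genes, and 27.6% of tested genes moved by more than the most changed member, PSAT1 (0.35). In siELF5, 32 of the 46 genes averaged within 10% of their siNC mean, and the whole list ran from 84.6% of the siNC mean (SLC7A5) to 127.2% (PSAT1). The siELF5 and siNC values did not overlap for 31 of the 46 (67.4%), 12 of them higher and 19 lower in siELF5, with 55.9% for all tested genes. The authors' deposited table called the same 21 genes in the same directions.

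**Figure D1:**
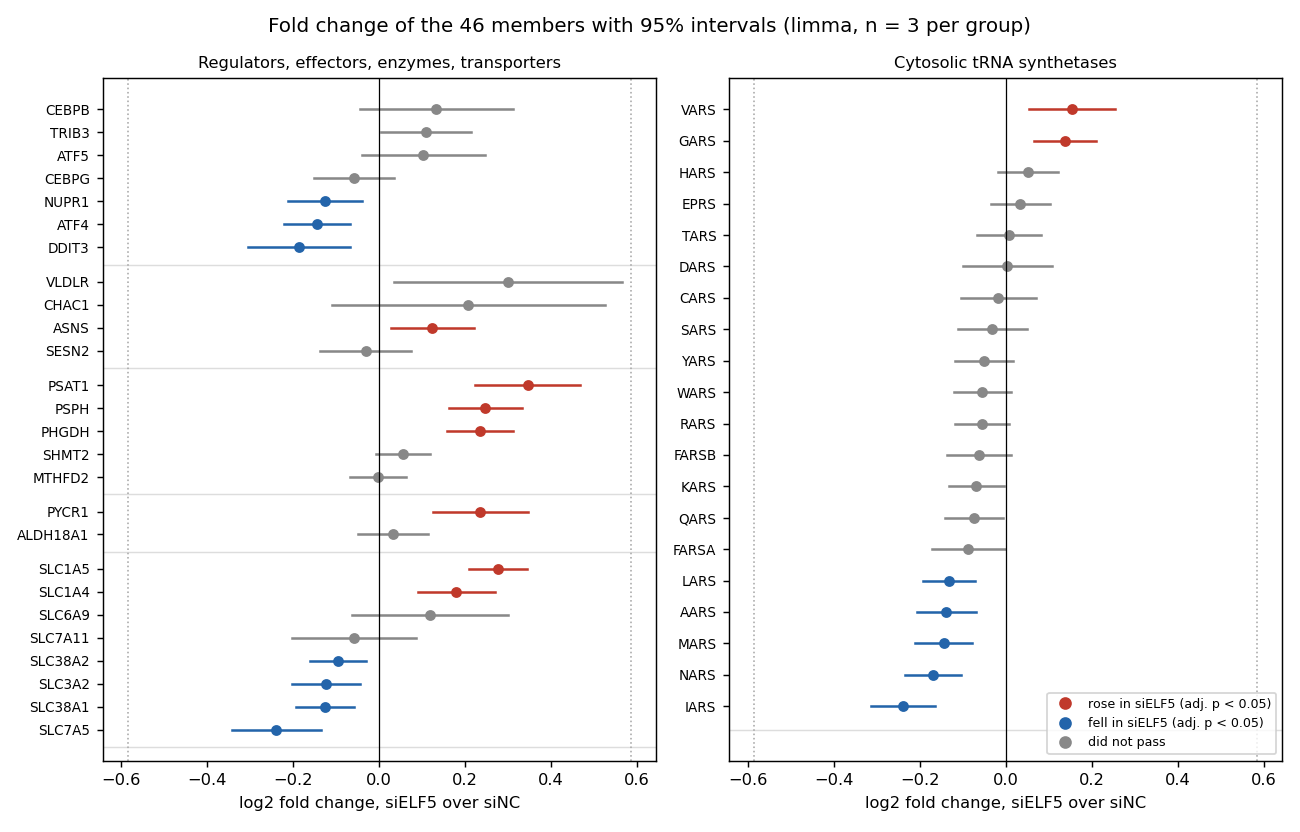
Log2 fold change of siELF5 over siNC with its 95% interval for the 46 genes, the tRNA synthetases on the right and the other role groups, set apart by grey lines, on the left. Points are red for genes that rose, blue for genes that fell and grey for genes that did not pass, and the dotted lines mark 1.5-fold. All 46 points lie between the dotted lines, and the serine enzymes PSAT1, PSPH and PHGDH lie to the right of 0.

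The split between directions depends on how libraries are scaled. With equal column totals 13 genes rose and 10 fell, and with quantile normalization 12 rose and 10 fell. So 56.5% and 54.5% of called members were higher in siELF5, against 42.9% as reported. Of all called genes 58.3% and 46.5% were higher under these scalings, and 3818 of 7559 as reported. The log2 fold changes of all tested genes shifted by a median of 0.03 and -0.05. The median of the list was -0.02 on the log2 scale as reported, 0.01 with equal totals and -0.0007 with quantile normalization. After a per-library GC correction 9 rose and 19 fell, so that 32.1% of called members were higher. Of the 7814 genes called there 43.5% were higher. No overall direction of the list can thus be stated.

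Promoters were searched for the composite site TGATGNAA, on both strands, in windows of 250 bases before to 50 bases after the gene's start from RefSeq (GRCh38.p14). A window was found for 37 of the 46 genes, and 14 of these (37.8%) held the motif, against 4.46% of 27305 genes in the table and 3.62% of 35116 windows. Members were listed as genes of the ATF4 response, so a share above that of all genes was likely from the start and is no result of these data. The 9 without a window were NUPR1, PSPH, SHMT2, PYCR1, SLC7A11, DARS, LARS, VARS and YARS. Matches lay in 7 synthetase and 4 transporter promoters, and in those of CEBPG, ASNS and CHAC1. Stretches of 30 bases are shown for 9 motif genes that passed the test, since these hold a match to the composite site and yet split by direction. Whether ATF4 acts through these matches was not tested. All are written 5′ to 3′ on the gene's strand, and capitals mark the match, which reads TTNCATCA in the opposite orientation. The first 4 belong to genes that rose.
ASNS (chr7:97872458-97872487, minus strand): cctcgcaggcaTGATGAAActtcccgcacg
SLC1A5 (chr19:46784893-46784922, minus strand): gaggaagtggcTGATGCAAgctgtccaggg
SLC1A4 (chr2:64989381-64989410, plus strand): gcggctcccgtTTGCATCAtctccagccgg
GARS (chr7:30594834-30594863, plus strand): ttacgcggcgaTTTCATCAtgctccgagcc
The other 5 belong to genes that fell.
SLC38A1 (chr12:46266502-46266531, minus strand): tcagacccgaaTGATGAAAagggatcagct
IARS (chr9:92293692-92293721, minus strand): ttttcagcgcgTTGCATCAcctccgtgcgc
NARS (chr18:57621804-57621833, minus strand): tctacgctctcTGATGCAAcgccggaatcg
MARS (chr12:57488053-57488082, plus strand): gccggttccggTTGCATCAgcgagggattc
AARS (chr16:70289675-70289704, minus strand): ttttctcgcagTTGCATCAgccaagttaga
SLC3A2, which fell, also has a match, at the edge of its window. The core TGATGCAA or its reverse was the same 8 letters in a transporter that rose, SLC1A5, and a synthetase that fell, NARS. In all, the 14 genes with a match held 4 that rose, 6 that fell and 4 that did not pass, and their median log2 fold change was -0.04. The 23 genes whose window held no match had 2 that rose, 4 that fell and 17 that did not pass, with a median of -0.03. Among all tested genes 23.8% were called higher and 23.3% lower. Calls were thus more frequent with a match than without one, in both directions, although the medians were alike. This difference was not tested. A match describes these letters in this window and was not tested for binding.

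Among the 7 regulators none rose, and 3 fell (42.9%), against 23.8% called higher and 23.3% called lower among all tested genes. The difference was not tested on so short a list. ATF4 had 15551, 14571 and 15049 normalised reads in siELF5 replicates 1, 2 and 3, against 17166, 16021 and 16746 in siNC replicates 1, 2 and 3. Every siELF5 library was below every siNC library, and ATF4 fell by 0.14 on the log2 scale (SE 0.036, limma adjusted p = 0.00495), to 90.5% of the siNC mean. Its log2 fold change was -0.20 after GC correction but -0.07 with the GC score in the model (limma adjusted p = 0.744). Without the intensity trend ATF4 just missed the threshold (limma adjusted p = 0.0506). Over the 19 alternatives its adjusted p ran from 4.25e-05 to 0.744. DDIT3, which encodes CHOP, the factor linked to cell death under lasting stress, had 1335, 1419 and 1368 reads in siELF5 and 1605, 1583 and 1503 in siNC. The groups again did not overlap, and DDIT3 fell by 0.19 (SE 0.055, limma adjusted p = 0.0135). NUPR1, a small nuclear stress protein, had 6019.6, 6277 and 5699 reads in siELF5 and 6558, 6534 and 6522 in siNC. Its siNC values were nearly equal and all above siELF5, with a log2 fold change of -0.13 (limma adjusted p = 0.02, SE 0.040).

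The calls of DDIT3 and NUPR1 were lost when single libraries were left out. DDIT3 lost its call without siELF5 replicate 1 (limma adjusted p = 0.0593) or without siNC replicate 2 (0.0556). NUPR1 lost its call without siELF5 replicate 1 (0.0524), siELF5 replicate 3 (0.0614) or siNC replicate 2 (0.0661), and it also missed the threshold with equal column totals (0.0605) and quantile normalization (0.0522). Over the 19 alternatives, of which 17 use limma, 1 edgeR and 1 DESeq2, the adjusted p ran from 0.00471 to 0.819 for DDIT3 and from 0.00985 to 0.456 for NUPR1. DDIT3 had -0.08 and NUPR1 -0.15 with the GC score in the model, and without the intensity trend NUPR1 was not called either (0.0765). The 4 regulators that did not pass were CEBPG, the C/EBP partner of ATF4, with a log2 fold change of -0.06, ATF5, a related stress factor, with 0.10, CEBPB, a C/EBP factor of the same response, with 0.13, and TRIB3, a pseudokinase that restrains ATF4, with 0.11. CEBPB and TRIB3 are rich in GC (66.2% and 60.9% of transcript bases), and after the per-library GC correction both passed in the other direction, with log2 fold changes of -0.51 and -0.12. ATF5 had -0.08 after the correction, without passing. None of the 4 passed with the GC score in the model and all 4 had the other sign, at 0.10 for CEBPG, -0.19 for ATF5, -0.18 for CEBPB and -0.08 for TRIB3. TRIB3 passed as higher without siNC replicate 3, at 0.14 (limma adjusted p = 0.0401), and with equal column totals, also at 0.14 (0.0291). Its adjusted p ran from 0.0203 to 0.755 over the 19 alternatives.

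The 4 stress effectors held a single call (25%, against 47.1% of all tested genes called in either direction). ASNS, asparagine synthetase and the textbook ATF4 target, had 3364, 3404 and 3139 reads in siELF5 replicates 1, 2 and 3, against 3078, 2997 and 3009.9 in siNC replicates 1, 2 and 3. All siELF5 values were above all siNC values, although siELF5 replicate 3 was close to the highest siNC library. ASNS rose by 0.12 on the log2 scale (SE 0.044, limma adjusted p = 0.0354). This call was lost without siELF5 replicate 1 (adjusted p = 0.122), siELF5 replicate 2 (0.130), siNC replicate 2 (0.114) or siNC replicate 3 (0.0737) in the same limma model, without the intensity trend (0.0727) and with the GC score in the model, where the value was 0.15, and the adjusted p ran from 0.0087 to 0.516 over the 19 alternatives. CHAC1, which degrades glutathione, had a log2 fold change of 0.21, SESN2, a leucine-sensing brake on mTORC1, -0.03, and VLDLR, a lipoprotein receptor, 0.30, and none of these passed. VLDLR lay close to the threshold (limma adjusted p = 0.0605). It passed without siNC replicate 1, where its log2 fold change was 0.43 (0.00784), with equal column totals, at 0.33 (0.0426), and after the GC correction, at 0.35 (0.0210), with a range of 0.00784 to 0.347 over the 19 alternatives. Its value with the GC score in the model was 0.89 (SE 0.281, limma adjusted p = 0.0634). SESN2 passed after the GC correction, at -0.19, and CHAC1 then had -0.13, without passing. CHAC1 and VLDLR are the scarcest members, and their standard errors were 0.146 and 0.122.

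The enzymes of serine synthesis rose together. PHGDH, PSAT1 and PSPH, which carry out the consecutive steps from the glycolytic intermediate 3-phosphoglycerate to serine, all rose, to 117.6%, 127.2% and 118.7% of the siNC mean. PHGDH, the first enzyme, had 9032, 8613 and 9239.9 reads in siELF5, against 7603, 7520.0 and 7728 in siNC. PSAT1, the transaminase of the second step, had 2777, 2666 and 2429.9 reads in siELF5, against 2093, 1979 and 2117 in siNC. PSPH, the phosphatase of the last step, had 4759.9, 4961 and 4748 reads in siELF5, against 4188, 3950.0 and 4054 in siNC. For all 3 genes the lowest siELF5 library was above the highest siNC library.

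The log2 fold changes were 0.23 (SE 0.036, limma adjusted p = 0.000166) for PHGDH, 0.35 (SE 0.056, limma adjusted p = 0.000268) for PSAT1 and 0.25 (SE 0.040, limma adjusted p = 0.000244) for PSPH. Their GC content is middling, 42.3% to 52.3%, and after GC correction the values were 0.24, 0.39 and 0.26. With the GC score in the model the values stayed near, at 0.23, 0.32 and 0.30, but their standard errors were 0.092, 0.141 and 0.103 and the calls were lost. The next enzymes on the path did not pass. SHMT2, which splits serine into glycine and a folate-bound carbon in mitochondria, had 15147, 14827 and 15140.1 reads in siELF5, against 14443, 14655 and 14319 in siNC, with no overlap but a log2 fold change of only 0.06 (limma adjusted p = 0.139), which passed with equal column totals (0.0202) and quantile normalization (0.0105), the range over alternatives being 0.0105 to 0.924. After GC correction SHMT2 had -0.0042. MTHFD2, which oxidises that carbon, had a log2 fold change of -0.0028 with a 95% interval of -0.07 to 0.06.

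**Figure D2:**
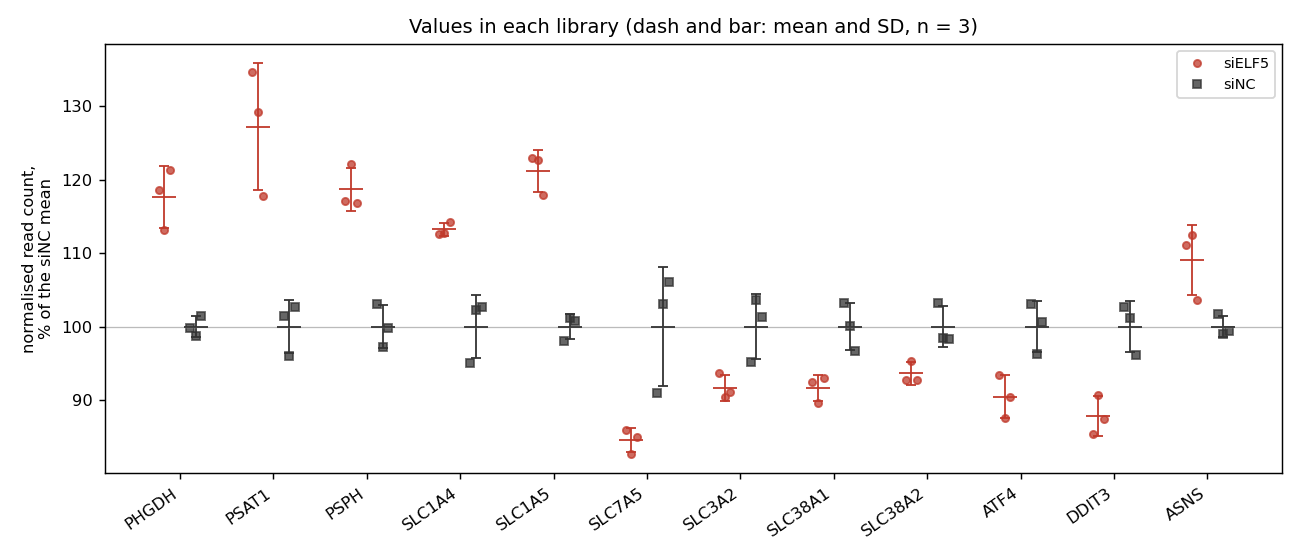
Normalised read count of 12 members in each library as a percentage of the siNC mean, siELF5 in red circles at the left of each pair and siNC in black squares at the right, with dash and bar for mean and SD (n = 3). PSAT1 shows the widest rise and the widest siELF5 spread, SLC7A5 the deepest fall and the widest siNC spread, and ASNS an siELF5 library close to siNC.

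Of the 2 proline enzymes, PYCR1, which makes proline in the final step, had 10714, 10210.1 and 10913 reads in siELF5 replicates 1, 2 and 3, against 8341, 8935 and 9819 in siNC replicates 1, 2 and 3. The groups did not overlap, and it rose by 0.24 on the log2 scale (SE 0.051, limma adjusted p = 0.00225). The siNC libraries spread widely and lie in the order of their GC scores, and PYCR1 is 61.8% GC. After the GC correction its log2 fold change was -0.05, and with the GC score in the model it was -0.06, neither past the threshold. ALDH18A1, which makes the precursor of proline from glutamate, did not pass (log2 fold change 0.03, 95% interval -0.05 to 0.11).

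Transporters moved in both directions, with 2 of 8 that rose (25%), 4 that fell (50%) and 2 that did not pass. The background shares over the 16032 tested genes were 23.8% for rises and 23.3% for falls. So the share of transporters that rose lay near the background, and the larger share that fell was not tested. The neutral amino acid exchangers of the SLC1 family rose. SLC1A5 (ASCT2), the main glutamine carrier of many cancer cells, had 15485, 15459.9 and 14850.5 reads in siELF5, against 12357, 12744 and 12704 in siNC. The groups lay far apart relative to their spread, and SLC1A5 rose by 0.28 (SE 0.031, limma adjusted p = 1.57e-05). SLC1A4 (ASCT1), which carries serine and alanine, had 4614, 4618 and 4682 reads in siELF5, against 3895, 4189.8 and 4206 in siNC. Its groups did not overlap, and it rose by 0.18 (SE 0.041, limma adjusted p = 0.00301). These relatives differ in base composition, 61.3% GC for SLC1A5 and 46.5% for SLC1A4. After GC correction SLC1A5 had a log2 fold change of 0.02 and was no longer called, while SLC1A4 had 0.21 and kept its call. With the GC score in the model it was the other way round in size, 0.21 for SLC1A5 and 0.02 for SLC1A4, neither of them called.

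Both chains of the leucine transporter LAT1 fell. SLC7A5, the light chain that carries leucine and other large neutral amino acids, had 20386, 19626 and 20166 reads in siELF5 replicates 1, 2 and 3, against 21564, 24438 and 25171 in siNC replicates 1, 2 and 3. The siELF5 libraries lay close together and below all siNC libraries, of which replicate 1 was the lowest. SLC7A5 fell to 84.6% of the siNC mean, a log2 fold change of -0.24 (limma adjusted p = 0.00125, SE 0.048). It was the only one of the 21 called members that kept its call and direction under all 19 alternatives. It was also the only one called with the GC score in the model, where it fell by 0.54 (SE 0.085, limma adjusted p = 0.000495, with 1.37e-09 to 0.0391 over the alternatives). After the GC correction it fell by 0.48. SLC7A5 is 61.1% GC, and the 1494 genes of its GC class (58.3% to 61.7%) had a median log2 fold change of 0.11. The correction subtracts a curve on GC in each library, not this median. Its siNC libraries lie in the order of their GC scores.

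SLC3A2, the heavy chain that LAT1 shares with the cystine transporter, had 12782, 12326 and 12419.5 reads in siELF5, against 12976, 14132 and 13815 in siNC, the groups apart. It fell by 0.12 (SE 0.036, limma adjusted p = 0.0134), a call lost without siELF5 replicate 2 (adjusted p = 0.0511) or siNC replicate 2 (0.0888) and with quantile normalization (0.0819), without the intensity trend (0.0774) and with the GC score in the model, although the estimate there was larger, at -0.25, with 8.67e-05 to 0.0994 over all alternatives. The light chain of the cystine transporter, SLC7A11 (xCT), had 1355, 1238 and 1158 reads in siELF5, against 1296, 1259 and 1348 in siNC. These values overlap, and the log2 fold change of -0.06 had a 95% interval of -0.20 to 0.08. SLC6A9, a glycine transporter, had no overlap between groups, but its log2 fold change of 0.12 did not pass (limma adjusted p = 0.269), and it had -0.05 after GC correction and -0.17 with the GC score in the model, again without passing.

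The sodium-coupled glutamine carriers fell slightly. SLC38A1 (SNAT1) had 35084, 34018 and 35287 reads in siELF5, against 39165, 38017 and 36706 in siNC. Every siELF5 value was below every siNC value, and it fell by 0.13 on the log2 scale (SE 0.031, limma adjusted p = 0.00529). SLC38A2 (SNAT2), whose mRNA responds to amino acid supply, had 29298, 30136 and 29319.9 reads in siELF5, against 32633, 31112 and 31056 in siNC, again without overlap. It fell by 0.09 (SE 0.030, limma adjusted p = 0.0204), and the call was lost without siELF5 replicate 1 (0.0695), without siNC replicate 1 (0.0832) or with equal column totals (0.0888), with 0.0167 to 0.982 over all alternatives. Both are low in GC (41.3% and 38.1%), and the siNC libraries of SLC38A1 lie in the reverse order of their GC scores. Without the intensity trend neither was called (limma adjusted p = 0.0529 and 0.0919). After GC correction they had -0.09 and -0.06, and with the GC score in the model SLC38A1 had a log2 fold change of 0.02 and SLC38A2 of -0.0051.

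The 20 cytosolic tRNA synthetases, which load amino acids onto their tRNAs, differed little between siELF5 and siNC. Of the 20, 2 rose (10%) and 5 fell (25%), against 23.8% called higher and 23.3% called lower among all tested genes, and 13 did not pass. Their groups did not overlap for 15 of 20 (75%), 12 of them lower and 3 higher in siELF5, against 55.9% of all tested genes. After GC correction 3 rose and 9 fell, against 3399 and 4415 of the 16032 tested genes. With the GC score in the model none was called. The median log2 fold change was -0.06, against 0.0015 for all tested genes and 0.08 for the other 26 members. Summed over the 20 genes, the normalised reads were 310714, 302734 and 304948 in siELF5, against 322000, 319635 and 314536 in siNC. With equal column totals the median was -0.02, and 3 rose and 5 fell. With quantile normalization it was also -0.02, and 4 rose and 5 fell. Over all tested genes these scalings shifted the log2 fold change by a median of 0.03 and -0.05.

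IARS, for isoleucine, changed most, with 24451, 23511 and 23534 reads in siELF5, against 28866, 28694 and 26810.1 in siNC. The groups did not overlap. IARS fell to 84.7% of the siNC mean, a log2 fold change of -0.24 (limma adjusted p = 0.000106, SE 0.034). NARS, for asparagine, had 16286, 16306 and 16392 reads in siELF5, against 18872, 18036 and 18193 in siNC. Its siELF5 values were nearly equal and all below siNC, and it fell by 0.17 (SE 0.030, limma adjusted p = 0.000479). MARS, for methionine, had 15572, 14985 and 15807 reads in siELF5, against 17042, 17171 and 17003 in siNC. AARS, for alanine, had 27542, 26427 and 28369.9 reads in siELF5, against 30384, 30269.9 and 29905 in siNC. Neither gene's groups overlapped, and both fell by 0.14 (SE 0.031 each), with limma adjusted p = 0.00191 for MARS and 0.00292 for AARS. LARS, for leucine, fell by 0.13 (SE 0.028, limma adjusted p = 0.00191). All 5 passed in the same direction after GC correction, with log2 fold changes of -0.18, -0.11, -0.18, -0.16 and -0.10 for IARS, NARS, MARS, AARS and LARS. In the model with the GC score they had, in that order, -0.08, -0.09, -0.12, -0.08 and -0.07, and none was called (limma adjusted p of 0.603, 0.558, 0.446, 0.637 and 0.677). The values of IARS, NARS, AARS and LARS there were more than 1.5 times smaller than reported.

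The synthetases that rose were GARS and VARS. GARS, for glycine, had 24716, 24756 and 22946 reads in siELF5, against 21986, 21957 and 21836 in siNC. The siNC values were nearly equal, all siELF5 values were above them, and GARS rose by 0.14 (SE 0.034, limma adjusted p = 0.00455), with 0.14 after GC correction too and 0.13, no longer called, with the GC score in the model. VARS, for valine, had 11518, 11308 and 11239.5 reads in siELF5 replicates 1, 2 and 3, against 9402, 10383 and 10872 in siNC replicates 1, 2 and 3. The groups were apart, and it rose by 0.15 (SE 0.046, limma adjusted p = 0.0145), a call lost without siELF5 replicate 1 (adjusted p = 0.0565, with 9.07e-05 to 0.38 over the alternatives). VARS is the synthetase richest in GC (62.6%), its siNC libraries lie in the order of their GC scores, and after GC correction it fell, by 0.18. It had -0.14, not called, with the GC score in the model, and without the intensity trend it missed the threshold (limma adjusted p = 0.0986).

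The remaining 13 synthetases lay between -0.09 (FARSA) and 0.05 (HARS) on the log2 scale. FARSA and QARS, for phenylalanine and glutamine, had log2 fold changes of -0.09 and -0.07 and passed without siELF5 replicate 3 (limma adjusted p = 0.0388 and 0.0151, with 1.14e-05 to 0.526 and 0.0019 to 0.92 over the alternatives). Both also passed after GC correction, and FARSA then changed more than any other synthetase, with a log2 fold change of -0.29, while QARS had -0.12. YARS (-0.10), EPRS (0.09) and HARS (0.08), for tyrosine, glutamate with proline, and histidine, passed there as well, with limma adjusted p of 0.0159, 0.00904 and 0.0465. None of these 5 was called with the GC score in the model. EPRS, which charges both glutamate and proline tRNA and is the most abundant synthetase in reads, averaged 39003 ± 730.3 in siELF5 and 38118 ± 1315 in siNC (SD, n = 3 each), a log2 fold change of 0.03 with a 95% interval of -0.03 to 0.10. TARS and DARS, for threonine and aspartate, were closest to 0, at 0.0077 and 0.0039.

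Levels of different synthetases can be compared only per length, and no annotated length is sure to be that of the expressed transcript. In mean normalised reads per kilobase GARS was highest in siELF5 by either length used, with 10888 per kilobase of coding sequence and 9165 per kilobase of the longest transcript, against 9890.0 and 8324 in siNC, where it had rank 4 and rank 2. The highest in siNC was NARS by coding length (11172) but AARS by transcript length (8682), by which NARS had rank 9, so the order at the top depends on the length chosen. CARS, for cysteine, was lowest in both groups by either length, at 1473 in siELF5 and 1491 in siNC per kilobase of coding sequence. Sorted by the known architecture of the enzymes, the 8 that belong to the multi-synthetase complex held 0 that rose, 3 that fell (IARS, LARS, MARS) and 5 that did not pass, with a median of -0.07. The 12 outside it held 2 that rose, 2 that fell and 8 that did not pass, with a median of -0.04. Of all tested genes 23.8% were called higher and 23.3% lower. Class I enzymes (9) and class II enzymes (10), with EPRS left out as it holds a domain of both, which differ in the fold of the catalytic domain, had medians of -0.06 and -0.05. These sortings were chosen after the values were seen and carry no test.

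**Figure D3:**
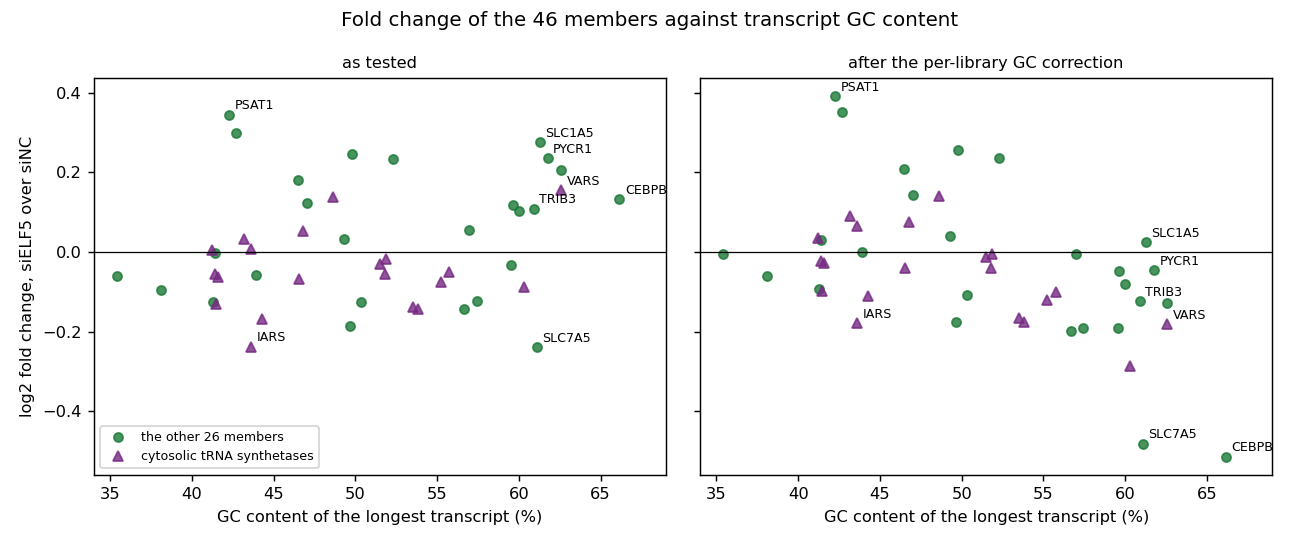
Log2 fold change of siELF5 over siNC against the GC content of the longest transcript for the 20 tRNA synthetases (triangles) and the other 26 members (circles), as tested on the left and after the per-library GC correction on the right. CEBPB, VARS, TRIB3 and PYCR1 lie above 0 on the left and below it on the right, SLC7A5 lies below 0 in both, and PSAT1 lies above 0 in both.

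GC content ran from 35.4% to 66.2% over the 46 transcripts. The 8 genes at 60% GC or more had a median log2 fold change of 0.14, with 3 that rose, 1 that fell and 4 that did not pass, and the 38 genes below 60% had a median of -0.04, with 6 that rose and 11 that fell. Over all tested genes, whatever their GC content, 23.8% were called higher and 23.3% lower. After GC correction the medians of the 8 and the 38 genes were -0.15 and -0.03. Over the 46 genes the log2 fold change and GC content had a Pearson r of 0.20 and a Spearman rho of 0.20 before correction and a Pearson r of -0.52 after it, given as a description of genes measured in the same libraries. The correction subtracts the trend of all genes, and the 1494 tested genes with the highest GC content (61.7% to 76.8%) had a median log2 fold change of 0.43. Of the 21 called members 18 passed in the same direction after the correction, and the exceptions were SLC1A5, PYCR1 and VARS. The share of the GC measure in the other results was not tested further.

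**Figure D4:**
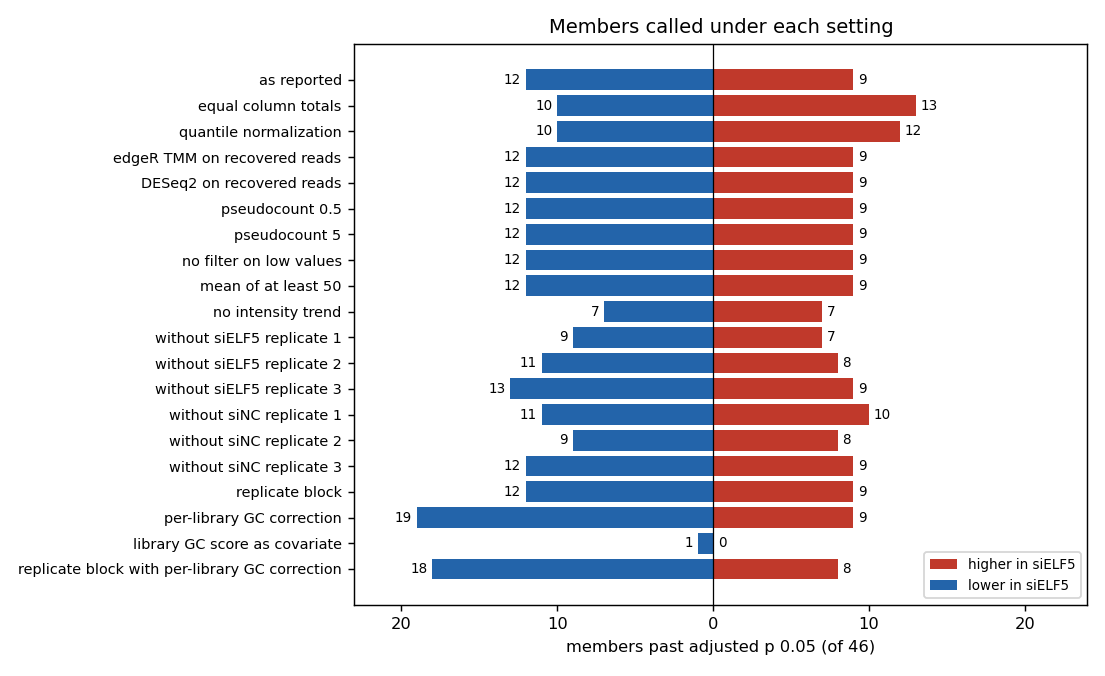
Number of members past adjusted p 0.05 under the reported fit and each of the 19 alternatives, with those higher in siELF5 in red to the right and those lower in siELF5 in blue to the left. The counts are 9 higher and 12 lower as reported, 9 and 19 after the GC correction, and 0 and 1 with the GC score in the model.

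Genes around the 46 in the same pathways were counted from lists of non-members. Of 16 tested genes for the eIF2 kinases, eIF2, its exchange factor eIF2B and its phosphatases, 4 rose (25%), 5 fell (31.2%) and 7 did not pass, against 23.8% called higher and 23.3% called lower among all tested genes, the background for each list here. PPP1R15A (GADD34), the stress-induced subunit that brings a phosphatase to eIF2 and so ends the response, had 829.5, 797 and 771 reads in siELF5, against 1111, 1129.8 and 1091 in siNC. The groups lay far apart, and it fell by 0.47 on the log2 scale (SE 0.062, limma adjusted p = 5.23e-05), more than any of the 46 members. IMPACT, an inhibitor of the amino acid sensing kinase GCN2, fell by 0.22 (limma adjusted p = 0.00115), and EIF2B5, the catalytic subunit of eIF2B, by 0.20 (limma adjusted p = 0.000335). None of these was called with the GC score in the model, and their log2 fold changes were -0.44, -0.34 and -0.13.

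Of 24 other ATF4 targets, 11 rose (45.8%), 3 fell (12.5%) and 10 did not pass, and their median log2 fold change was 0.15, or 8 rose and 5 fell with a median of 0.08 after GC correction, and none was called, with a median of 0.09, with the GC score in the model. ATF3, a stress-induced factor of the same family, had 975, 959 and 907 reads in siELF5, against 1458, 1426 and 1391 in siNC. Its groups did not overlap, and ATF3 fell by 0.59 (SE 0.059, limma adjusted p = 5.15e-06), with -0.50 and no call with the GC score in the model. In the other direction, CEBPD, a C/EBP factor, had 391, 473 and 306 reads in siELF5, against 200.1, 184 and 237 in siNC. Its siELF5 values were all higher and spread widely, and CEBPD rose by 0.90 (SE 0.155, limma adjusted p = 0.000428), but it is 70.0% GC and had -0.25 after GC correction and 0.43 with the GC score in the model, neither called. GDF15, a secreted stress cytokine, had 136, 159 and 105 reads in siELF5, against 85.1, 88.5 and 64.8 in siNC. Counts were low but the groups did not overlap, and GDF15 rose by 0.73 (SE 0.200, limma adjusted p = 0.00919), a call lost without siELF5 replicate 2 (0.0537) and after GC correction, where it had 0.37, and with the GC score in the model, where it had 1.12. Its adjusted p ran from 0.00452 to 0.232 over the alternatives.

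Of 17 mitochondrial tRNA synthetases, 2 rose (11.8%), 2 fell (11.8%) and 13 did not pass. IARS2, the mitochondrial counterpart of IARS, had 46578, 45967 and 44158 reads in siELF5, against 38684, 38135 and 38498 in siNC. All siELF5 values were higher, and IARS2 rose by 0.25 (SE 0.029, limma adjusted p = 2.12e-05), while cytosolic IARS fell by 0.24. HARS2, for histidine, fell by 0.24 (limma adjusted p = 0.000129), and CARS2, for cysteine, rose by 0.18 (limma adjusted p = 0.0287). The CARS2 call was lost without siELF5 replicate 2 or 3 or siNC replicate 1 or 2 (adjusted p of 0.0584, 0.0867, 0.0731 and 0.121). It was also lost with quantile normalization (0.0931) and without the intensity trend (0.0674), with 0.00659 to 0.936 over all alternatives. Among the 4 scaffolds and relatives of the synthetase complex none rose and 2 fell (50%). TARSL2, a further threonine enzyme, fell by 0.35 (limma adjusted p = 0.0016), and AIMP1, a scaffold of the complex, fell by 0.18 (limma adjusted p = 0.00379). None of these 5 genes was called with the GC score in the model, where IARS2 had 0.25, HARS2 -0.13, CARS2 -0.03, TARSL2 -0.26 and AIMP1 0.01. After GC correction CARS2 had 0.13 and was not called, and the other 4 kept their calls.

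Of 19 other amino acid transporters tested, 4 rose (21.1%), 5 fell (26.3%) and 10 did not pass, and here some changes were larger than in the 46. SLC6A6, the taurine transporter, had 6149, 5819.9 and 6071 reads in siELF5, against 10547, 10309.8 and 10586 in siNC. The groups did not overlap. SLC6A6 fell to 57.4% of the siNC mean, by 0.80 on the log2 scale (SE 0.034, limma adjusted p = 3.61e-09), and its call held under all 19 alternatives. SLC7A8 (LAT2), a relative of SLC7A5 named here after its values were seen, had 3553, 3582 and 3716 reads in siELF5, against 5941, 6008 and 5953 in siNC, and fell by 0.72 (SE 0.037, limma adjusted p = 1.53e-08). SLC43A1 (LAT3), another carrier of large neutral amino acids, was scarce, with 105, 74.6 and 76.0 reads in siELF5, against 25.3, 31.4 and 41.5 in siNC. The groups did not overlap, and SLC43A1 rose by 1.36 (SE 0.254, limma adjusted p = 0.000745). After GC correction it had 1.27, but with the GC score in the model 0.48 (SE 0.653, limma adjusted p = 0.744). SLC7A2, a carrier of basic amino acids, had 47.1, 57.9 and 51.4 reads in siELF5, against 126, 73.8 and 70.8 in siNC, where replicate 1 was far above the others. It fell by 0.74 (limma adjusted p = 0.0253), but by 0.47 without siNC replicate 1 (0.137), and the call was also lost without siELF5 replicate 1 (0.0805) or 3 (0.0555), without the intensity trend (0.0627) and with the GC score in the model, where the log2 fold change was 0.38, with 0.0103 to 0.781 over all alternatives.

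With the GC score in the model the non-members that passed in these lists were SLC6A6 (-0.78), SLC7A8 (-0.72), SLC7A1, a carrier of basic amino acids (-0.36), and AHCY, which splits S-adenosylhomocysteine (-0.27), all lower in siELF5. SLC7A1 and AHCY are named because they passed there.

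Of 19 other enzymes of serine, folate, proline and glutamine metabolism, 5 rose (26.3%), 7 fell (36.8%) and 7 did not pass. PRODH, which starts proline breakdown, had 1688, 1591 and 1736 reads in siELF5, against 1169, 1311 and 1394 in siNC. All siELF5 values were higher, and PRODH rose by 0.37 (SE 0.069, limma adjusted p = 0.000648). After GC correction it had 0.25, and with the GC score in the model 0.05 (limma adjusted p = 0.892). AMT, of the glycine cleavage system, had 126, 140.3 and 137 reads in siELF5, against 93.1, 108 and 92.1 in siNC, with no overlap. It rose by 0.46 (limma adjusted p = 0.0283). The call was lost without siELF5 replicate 2 (0.0871), siELF5 replicate 3 (0.0622), siNC replicate 1 (0.0713) or siNC replicate 3 (0.0740). Quantile normalization (0.156), no filter on low values (0.0564) and DESeq2 on the recovered reads (DESeq2 adjusted p = 0.0577) also lost it. AMT passed after the GC correction, at 0.42 (limma adjusted p = 0.0401), but not with a replicate block added (0.0568). Its adjusted p ran from 0.0104 to 0.647 over all alternatives. MTHFD2L, a relative of MTHFD2, had 252, 279.7 and 194 reads in siELF5, against 197, 157 and 173 in siNC, so its groups overlapped. It rose by 0.45 (limma adjusted p = 0.0287), a call lost without siELF5 replicate 1 (0.0941), siELF5 replicate 2 (0.134) or siNC replicate 2 (0.113). The call was also lost with quantile normalization (0.185) and without the intensity trend (0.0755), with 0.00614 to 0.414 over all alternatives. AMT had 0.43 and MTHFD2L 0.62 with the GC score in the model, neither called.

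Some members share exon bases with a neighbour, and the kit does not mark strand, so reads from the shared bases cannot be told apart. By GENCODE annotation MARS and DDIT3 overlap on chromosome 12, and MARS shares 2.13% of its exon bases with DDIT3 on the other strand. DDIT3 shares 4.74% of its exon bases on the other strand and 8.03% on its own, with MARS and AC022506.1 as the overlapping genes. MTHFD2 shares 36.3%, SLC1A5 23.4%, ATF5 21.9% and PYCR1 19.6% of their exon bases with genes on the other strand, and ASNS shares 79.7% with AC079781.5 on the same strand. HARS shares 9.50% with HARS2. PSPH has a closely related pseudogene, PSPHP1, with which the counting could have shared reads.

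The 3′ UTRs of the longest transcripts were searched for CACTAAC and ACTAACA, a pair of 7-base motifs chosen with earlier results of these data known. Of the 46 members 2 (4.35%) hold either motif, AARS, which fell, and VLDLR, which did not pass, against 11.3% of 13413 tested genes searched. Among the non-members named from the pathway lists SLC6A6, which fell, holds one too. Among the markers ESR1 and PGR, which rose, and PDGFRB and PECAM1, which were too low to be tested, also hold one.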

How the data were processed

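Per the labels' protocols RNA-seq libraries came from the TruSeq RNA kit v2, which keeps no strand information. Sample titles gave the group and the replicate number. The labels do not say that replicates were separate cultures, and p-values then reflect only the spread among these libraries, which may be technical. Per the submitters' processing notes the tools were STAR 2.6, Subread, featureCounts 1.6.3 and DESeq2 1.22.1, on build hg19. Their settings, strand and multi-mapping options included, were not found in the labels or headers. The deposited value of each library is a signal value, as is their deposited mean, and both proved to be gene counts divided by 1 size factor per library, since 100% of non-zero values were whole multiples of the column's smallest value within a tolerance of 1e-06. They are called normalised reads here. The authors' deposited log2 fold change, its test score, p-value and adjusted p-value are DESeq2 results, per the file headers, and served for comparison only.

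R 4.3.3 and limma 3.58.1 (trend on intensity, no covariates, two-sided) gave the main test, on log2(value + 1) over the 16032 of 26364 genes with a mean of at least 10 (21390 had a read). Adjusted p-values are Benjamini-Hochberg over all tested genes, with a threshold of 0.05. Fold changes are siELF5 over siNC on that scale, which understates low genes. Libraries held 66.8 to 83.7 M reads, and the scarcest members, CHAC1 and VLDLR, had the least precise values (SE 0.146 and 0.122). Replicate pairs differed by 4.26 to 11.4 chi-square per degree of freedom, so none was a copy of another. GC content, lengths and exon overlap came from GENCODE 29, with GC known for 93.2% of tested genes and all 46 members. The GC correction subtracts a loess curve (span 0.3) on GC per library. The GC score as a covariate also takes up part of the group difference, since the groups do not overlap in it, and it widened the median standard error to 0.151. The calculation was tested on simulated data.

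Members, lists and motifs were chosen with earlier results of these data known. Values in every library are given for up to 4 called members of each role (6 for synthetases) with the largest change, and up to 3 called non-members per list are named. ATF4, ASNS, PHGDH and SLC7A11 were always given, and SHMT2, SLC3A2 and SLC38A2 were added after their values were seen. In all, 19 alternatives were run, among them edgeR 4.0.16 and DESeq2 1.42.0 on the recovered reads, other scalings, pseudocounts of 0.5 and 5, other filters and leaving out each library.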

Additional observations from a re-analysis of the deposited data

How the results depend on the processing

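Under the 19 alternatives SLC7A5 alone among the 21 called members kept its call and direction in all, and 15 of the 21 kept both whichever single library was left out. Leaving out 1 library gave 7 to 10 members higher and 9 to 13 lower in siELF5, and 6167 to 7324 tested genes called. On the recovered reads edgeR called 7578 genes and DESeq2 7292, and no member's call changed. Without the intensity trend 7 members were higher and 7 lower. After the per-library GC correction 7814 genes were called, 19 members were lower, and 10 members had the other sign. These were the called PYCR1 (-0.045) and VARS (-0.18), and CEBPB (-0.51) and TRIB3 (-0.12), which passed after it but not as reported. The others were ATF5, CEBPG, CHAC1, SHMT2, MTHFD2 and SLC6A9, which passed in neither fit. CEBPD (-0.25), a non-member, also turned, and a replicate block added to the correction left these printed values as they are. With the GC score in the model 0 members were higher, 1 was lower and 1138 genes were called, and 12 members had the other sign, of which PYCR1 (-0.065), SLC38A1 (0.020) and VARS (-0.14) had been called and 9 passed in neither fit. The called non-members CARS2 (-0.032), AIMP1 (0.014) and SLC7A2 (0.38) also turned. That fit widened the standard errors and also moved the estimates, and 8 called members (ATF4, DDIT3, SLC1A4, SLC38A2, AARS, IARS, LARS and NARS) kept their sign with values more than 1.5 times smaller. The cause of the other changes was not tested. Same-numbered libraries did not deviate together (correlations 0.0146, -0.0345 and -0.056, with 1 of 6 libraries closest to its own number). With 3 libraries a group this cannot exclude that numbers pair the samples. With the replicate block 9 members were higher, 12 lower and 7174 genes called. With 3 libraries a group, 1 siRNA per target and groups apart in GC score, changes of this size cannot be told apart from differences between siRNA products or library composition.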
